A study of Mus musculus with 3 samples.

Results

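The 52 genes described here encode the TGF-beta, BMP and activin signalling pathway, and their signals were read in endothelium sorted from embryonic mouse kidneys. They were chosen by name as members of the pathway, and a probe set was taken where the platform annotation gave it a single gene symbol equal to a member. All 52 were found, by 53 of the 35557 probe sets on the array and among 19938 named genes. By role they were 12 ligand genes, 13 receptors and co-receptors, 8 SMADs, 8 antagonists and modulators, 4 latent binding proteins, 4 ID genes, and 3 genes outside these groups, a protease and a pair of ubiquitin ligases.

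Kidneys at embryonic day 15.5 (Theiler stage 23) were taken from mice of the outbred CD-1 strain carrying Tg(TIE2GFP)287Sato, in which the promoter of Tek (the angiopoietin receptor Tie2) drives green fluorescent protein. This promoter marks endothelium and is also active in some blood-forming cells and macrophages. Each of 3 samples was a pool of 4 to 5 kidneys dissociated with trypsin and sorted for GFP, with RNA amplified once and hybridized to 1 Affymetrix Mouse Gene ST array. The 3 arrays form a single untreated group without a second cell type or stage, the labels do not tie the pools to litters, and the p-values rest on array-to-array spread alone, which may be technical.

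Ligands of this family bind paired type I and type II serine/threonine kinase receptors. TGF-beta and activin receptors phosphorylate SMAD2 and SMAD3, BMP receptors phosphorylate SMAD1, SMAD5 and SMAD9, and either kind then joins SMAD4 to act in the nucleus. In endothelium the type I receptor ALK1 (gene Acvrl1) with the co-receptor endoglin (Eng) carries BMP9 and BMP10 signals to the ID genes, and loss of either gene causes hereditary haemorrhagic telangiectasia, a disease of malformed vessels.

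The question put to each gene was whether its signal lay above or below 100, the study's cutoff for low signal, which is 6.64 on the log2 scale of the deposited values. Each mean was tested with limma, one-sided in each direction and adjusted over all probe sets, first with the moderated spread of eBayes and then with 1 spread of 0.491 log2 pooled over all probe sets. The second is given throughout because 36 of the 52 members, like 69.6% of all named genes, had exactly equal values in at least 2 arrays, so that several SDs are 0.00 and a small distance from the level can pass. The pooled spread is the same for every gene, so its p-values do not measure a gene's own spread. It is smaller than the SDs of Eng, Acvr2a, Smad1 and Ltbp1, whose pooled p-values are therefore too small. "Passed under both" below means an adjusted p under 0.05 with each of the 2 spreads. Each gene was set against the level and not against another gene. Probe sets differ in affinity, which a common level does not correct, so the side of a gene can also reflect its probe set. Counts by role share this limit.

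Over the level in every array were 9 of 13 receptor genes, 6 of 8 SMAD genes and all 4 ID genes of the pathway. Under it in every array were 7 of 12 ligand genes. For all 19938 named genes these numbers were 9426 over and 9137 under. Tested under both spreads, 7 receptor, 4 SMAD and 4 ID genes and 1 ligand gene passed as above, and 3 receptor and 2 ligand genes as below. Of the 52 members, 26 were above the level and 15 below with the moderated spread, and 24 and 5 with the pooled spread. With the moderated spread these counts were 17 and 9 without array 1 and 19 and 9 without array 2. At a level of 200 they were 14 and 28. For all named genes the corresponding shares were 41.6% above and 41.6% below with the moderated spread, and 36.0% and 32.5% with the pooled one. Under both spreads 22 members passed as above, 42.3% of the list against 32.5% of all named genes, and 5 as below, 9.62% against 30.9%. The members' median of mean log2 values was 7.17, and that of all named genes was 6.67. In these bulk samples fewer cells of a type and less RNA per cell cannot be told apart.

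**Figure D1:**
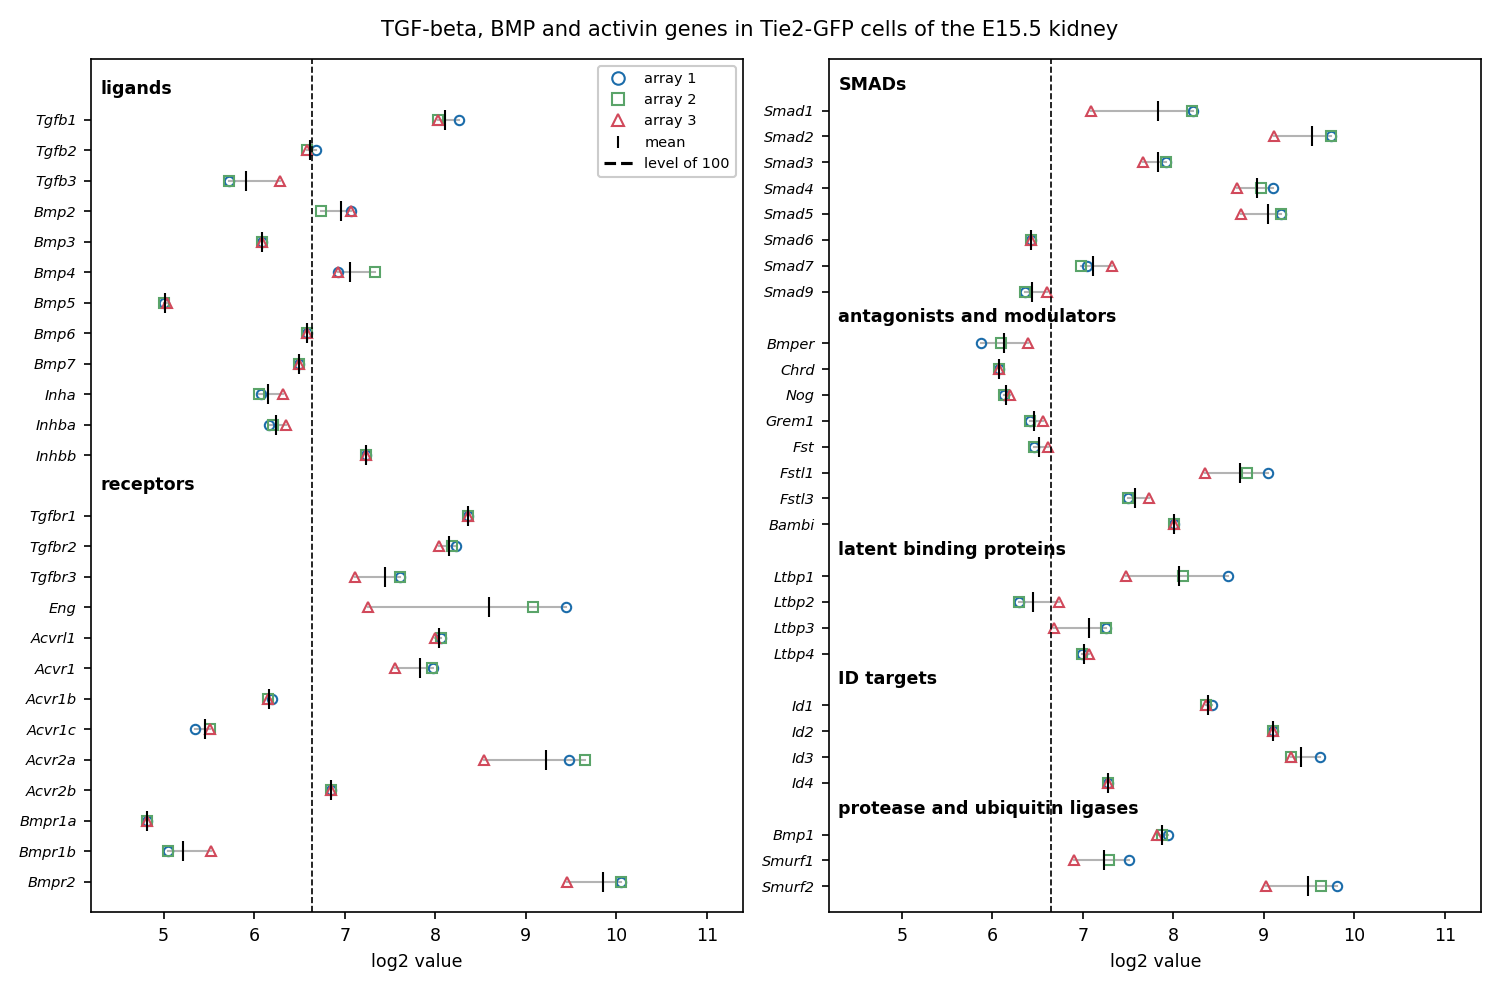
Log2 value of each of the 52 members (x axis) in array 1 (blue circles), array 2 (green squares) and array 3 (red triangles), grouped by role, with the mean of the 3 arrays as a black tick, the range as a grey line and the level of 100 as a dashed line. The 4 ID genes lie to the right of the level in every array, 7 of 12 ligand genes lie to its left in every array, and Eng has the widest range, from 7.26 to 9.45.

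The sorted cells carried endothelial markers, and the arrays differed in endothelial and macrophage markers. All 12 pan-endothelial markers examined were over the level in every array, 11 passing with the moderated spread and 12 with the pooled spread. Their summed log2 values were 122.0, 119.8 and 108.9 in arrays 1, 2 and 3, and all 12 were lowest in array 3, by a median of 0.95 log2 below the mean of arrays 1 and 2. Of 13 macrophage markers 10 were highest in array 3, with sums of 83.6, 96.2 and 102.4. Arrays 1 and 2 differed in these markers too, with medians of 6.45, 7.69 and 8.11 log2 in arrays 1, 2 and 3. Sums for the other lists lay within narrow limits, though single markers moved more. They ran from 60.6 to 61.2 over 9 nephron lineage markers, of which 3 passed as above under both (Six2, Cited1 and Wnt4). The range was 57.5 to 59.1 over 9 ureteric bud markers (1 passed, Hoxb7) and 77.3 to 79.5 over 12 stromal and mural markers (2 passed, Foxd1 and Col1a1). It was 20.3 to 20.6 over 3 podocyte markers (1 passed, Podxl) and 47.4 to 48.8 over 7 erythroid markers (2 passed, Hbb-y and Hba-x). Between arrays Foxd1 ranged over 1.02 log2 (highest in array 3), Hbb-y over 1.00 (lowest in array 1) and Calb1 over 1.32 (highest in array 1). No marker was listed at 0. The part of other cell types in the values below was not tested.

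Among ligand genes only Tgfb1, which encodes the main TGF-beta of vessels, passed as above under both spreads. It measured 8.27, 8.03 and 8.03 log2 in arrays 1, 2 and 3, a mean of 8.11 ± 0.14 (SD, n = 3, limma adjusted p = 0.0025 moderated and 6.19e-07 pooled). Every array lay more than 1 log2 unit above the level, and without array 3 it did not pass with the moderated spread. Tgfb2 (6.62 ± 0.06) was on neither side, and Tgfb3 passed as below under both at 5.91 ± 0.32, with 6.29 in array 3 and 5.72 in the others.

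BMP ligand genes lay near or under the level. Bmp2, a ligand of BMP receptors on endothelium, measured 7.07, 6.73 and 7.07 log2, over the level in every array, but did not pass (limma adjusted p = 0.0926 moderated, 0.340 pooled). Bmp4, made by many mesenchymal cells, measured 6.93, 7.34 and 6.93 and did not pass either (limma adjusted p = 0.0779 and 0.185). Array 2 held the lowest value of Bmp2 and the highest of Bmp4. Bmp5 passed as below under both at 5.01 ± 0.02. Bmp3 (6.09), Bmp6 (6.58) and Bmp7 (6.50), each with the same value in all 3 arrays, passed as below with the moderated spread only, at pooled adjusted p of 0.0647, 0.799 and 0.606 in limma. Bmp6 and Bmp7 were under the level by 0.06 and 0.15 log2, distances that the pooled spread does not separate from it.

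The activin and inhibin subunit genes differed in side. Inhbb, the beta B subunit of activins, stood at 7.23 log2 in every array and was above with the moderated spread, while the pooled spread gave a limma adjusted p of 0.0551. Inha, the subunit that turns activins into inhibins, at 6.15 ± 0.15, and Inhba, the beta A subunit, at 6.24 ± 0.10, were below with the moderated spread only. In all, the 12 ligand genes counted 2 above and 7 below with the moderated spread, and 1 and 2 with the pooled spread. The moderated shares were 16.7% and 58.3%, against 41.6% and 41.6% of all named genes. Under both spreads they were 8.33% and 16.7%, against 32.5% and 30.9%, so by that rule ligand genes were below less often than all named genes. With either array 1 or array 2 left out, 3 were below with the moderated spread, since Tgfb3, Bmp6, Inha and Inhba lost that call, and without array 2 Bmp2 and Bmp4 were above, which made 4. Leaving out array 3 gave 1 above, Inhbb.

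Of 13 receptor and co-receptor genes, 8 were above and 4 below with the moderated spread, 8 and 3 with the pooled spread, and 7 passed as above under both. Under both spreads 53.8% were above and 23.1% below, against 32.5% and 30.9% of all named genes. Without array 1, and likewise without array 2, 5 were above with the moderated spread, with Tgfbr3, Acvr1 and Acvr2a losing that call and Bmpr1b its call as below. Both TGF-beta kinase receptors were among them. Tgfbr1, the type I receptor ALK5, measured 8.36 log2 in each array, and Tgfbr2, its type II partner, measured 8.22, 8.19 and 8.05. Tgfbr3, the co-receptor betaglycan, was at 7.61, 7.61 and 7.11, over the level in each array though lower in array 3, and passed (limma adjusted p = 0.0342 moderated, 0.00774 pooled).

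Of the endothelial receptor pair ALK1 and endoglin, Acvrl1 passed as above under both spreads and Eng with the pooled spread only. Acvrl1 measured 8.07, 8.07 and 7.99 log2, a mean of 8.04 ± 0.04 (SD, n = 3, limma adjusted p = 0.000278 moderated and 2e-06 pooled), and its 3 values differed by 0.07. Its values in arrays 1 and 2 were exactly equal, so no contrast in spread with Eng is drawn. Eng measured 9.45, 9.08 and 7.26, with a mean of 8.60 ± 1.17, so that array 3 lay 2.00 log2 below the mean of the others, a 4-fold difference on the linear scale. Over the level in every array, Eng passed with the pooled spread (limma adjusted p = 2.05e-11) but not with the moderated spread (0.0885). Without array 3 it was again on neither side with the moderated spread and above with the pooled one. In the same array the differences of the 12 pan-endothelial markers ran from -1.61 to -0.52 log2, and their part in that of Eng was not tested. After quantile normalization of the arrays the Eng difference was -1.75 log2, and that of Acvrl1 was 0.26, against -0.07 as deposited. For a view of this locus the 250 bases before the Eng start are shown, from RefSeq on GRCm38.p6, chr2:32646345-32646594 on the + strand and 5′ to 3′, with capitals marking GTCT or its complement AGAC, the short SMAD-binding letters. 
Eng: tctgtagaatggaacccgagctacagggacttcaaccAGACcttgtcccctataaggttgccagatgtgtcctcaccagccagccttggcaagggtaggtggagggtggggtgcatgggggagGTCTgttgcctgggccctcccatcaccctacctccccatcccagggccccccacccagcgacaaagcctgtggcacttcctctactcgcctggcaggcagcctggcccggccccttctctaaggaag

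Of the type II receptors, Bmpr2 and Acvr2a passed as above under both spreads, as did Tgfbr2, given above. Bmpr2, the BMP type II receptor mutated in familial pulmonary hypertension, measured 10.06, 10.06 and 9.46 log2, with a mean of 9.86 ± 0.34 (SD, n = 3, limma adjusted p = 0.00322 moderated and 7.32e-29 pooled). Acvr2a measured 9.48, 9.66 and 8.54 and passed under both, though its range of 1.12 log2 was among the widest of the members. Acvr2b stood at 6.84 in every array, 0.20 log2 over the level, and passed with the moderated spread only (0.571 pooled, limma adjusted p).

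Type I receptors of BMPs were split. Acvr1, which encodes ALK2, measured 7.98, 7.96 and 7.55 log2 and passed as above under both. Bmpr1a and Bmpr1b, which encode ALK3 and ALK6, passed as below under both, at 4.82 in all 3 arrays and at 5.21 ± 0.27. The activin and nodal type I receptors were on the low side too, with Acvr1c (ALK7) below under both at 5.46 ± 0.10 and Acvr1b (ALK4) at 6.17 ± 0.03, below with the moderated spread only. The value of Bmpr1a rests on 1 probe set and was not checked by another.

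Smad2, Smad3, Smad4 and Smad5 passed as above the level under both spreads, and the other 4 SMAD genes did not. Of 8 SMAD genes, 5 were above with each spread, 4 of them under both, and 1 was below with the moderated spread only. Under both spreads 50.0% were above, against 32.5% of all named genes. Without array 1, and likewise without array 2, 2 SMAD genes were above with the moderated spread, Smad4 and Smad5, while Smad2, Smad3 and Smad7 lost that call. On the TGF-beta side Smad2 measured 9.74, 9.74 and 9.11 log2 and Smad3 7.92, 7.92 and 7.67, and both passed under both spreads. Smad4, the common partner, was at 9.10, 8.97 and 8.70, with a mean of 8.92 ± 0.20 (SD, n = 3, limma adjusted p = 0.00224 moderated and 4.18e-15 pooled).

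On the BMP side Smad5 measured 9.19, 9.19 and 8.75 log2 and passed under both. Smad1 was at 8.21, 8.21 and 7.09, a range of 1.13 log2, and passed with the pooled spread (limma adjusted p = 5.69e-05) but not with the moderated one (0.0742). Smad9, the least common BMP SMAD, was at 6.44 ± 0.14 and on neither side. In the values as deposited, all 5 of Smad1 to Smad5 were lower in array 3 than in either other array. They lay 0.25 to 1.12 log2 below the mean of arrays 1 and 2. After quantile normalization these differences were -0.94 log2 for Smad1, -0.23 for Smad2, 0.01 for Smad3, 0.09 for Smad4 and -0.01 for Smad5. The drop of the 5 genes as a group thus depended on the scaling.

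The inhibitory SMADs are induced by the pathway and dampen it. Smad7 measured 7.05, 6.98 and 7.32 log2 and was above with the moderated spread only (limma adjusted p = 0.0382, and 0.134 pooled), with its highest value in array 3. Smad6 stood at 6.43 in each array and was below with the moderated spread only, at a pooled adjusted p of 0.472 in limma.

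All 4 ID genes, which encode helix-loop-helix proteins without a DNA-binding region and are induced by BMP SMADs, were above the level under both spreads and in every array. Id1 measured 8.43, 8.36 and 8.36 log2, with a mean of 8.38 ± 0.04 (SD, n = 3, limma adjusted p = 0.000187 moderated and 2.65e-09 pooled). Id2 stood at 9.11 in each array, and Id3 was at 9.62, 9.30 and 9.30. Id4, at 7.27 in each, passed nearest to the threshold (limma adjusted p = 0.0397 pooled). Unlike Eng and Smad1, no ID gene was lower in array 3 than in both other arrays, but this rests on exactly equal values. Id1 and Id3 had the same value in array 3 as in another array and were higher in the remaining one, while Id2 and Id4 were equal in every array. Such equal values were common among all named genes, so no contrast with Eng and Smad1 is drawn from them.

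**Figure D2:**
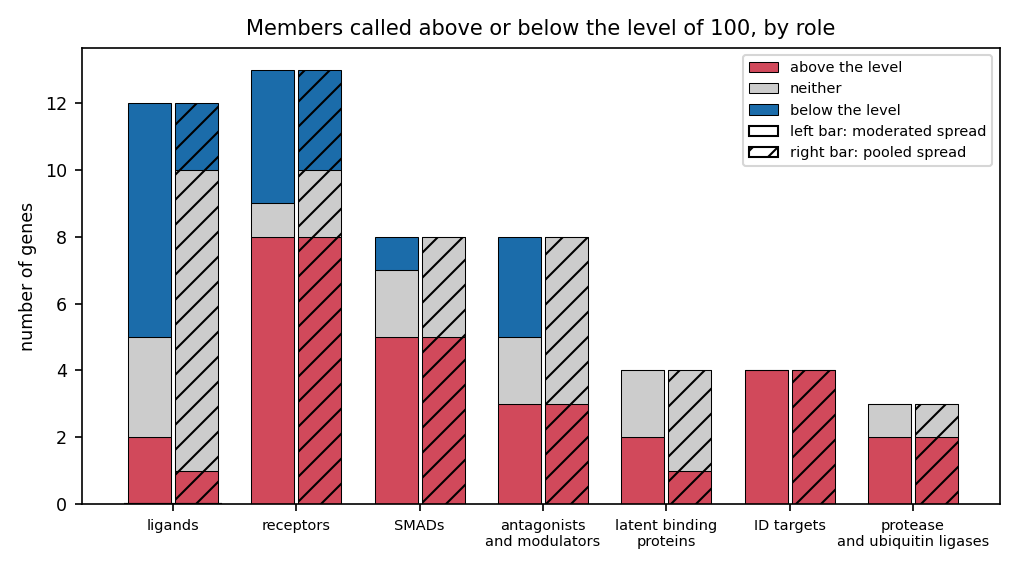
Number of members (y axis) above the level of 100 (red), below it (blue) or on neither side (grey) in each role, with the moderated spread in the left bar and the pooled spread in the hatched right bar. All 4 ID genes are above in either bar, while the ligand bars hold 2 and 1 genes above and 7 and 2 below.

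Bases before the start were searched for letters bound by SMADs, because ID genes are targets of BMP SMADs. The letters were GTCT, the GC-rich GGCGCC and its variant GGAGCC, on both strands, and none overlapped another in the windows printed. Of the 52 members 38 matched an entry of the RefSeq set, with 47 windows of 250 bases. Id2 (chr12:25096093-25096342, - strand) and Id3 (chr4:136143572-136143821, + strand), both on GRCm38.p6, are printed 5′ to 3′ as the ID genes furthest from the threshold that the table holds, with capitals marking the letters searched. 
Id2: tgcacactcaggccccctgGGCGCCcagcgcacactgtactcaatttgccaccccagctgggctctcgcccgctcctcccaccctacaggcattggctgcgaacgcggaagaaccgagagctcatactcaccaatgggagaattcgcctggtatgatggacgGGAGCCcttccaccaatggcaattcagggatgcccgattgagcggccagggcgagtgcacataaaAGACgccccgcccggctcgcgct
Id3: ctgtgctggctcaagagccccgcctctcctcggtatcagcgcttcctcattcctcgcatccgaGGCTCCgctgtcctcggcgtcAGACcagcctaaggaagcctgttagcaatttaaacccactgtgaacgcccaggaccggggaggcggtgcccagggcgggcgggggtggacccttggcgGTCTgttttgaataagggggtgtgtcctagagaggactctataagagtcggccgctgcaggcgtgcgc

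The window of Id2 held GGCGCC once, 225 bases before the start, GGAGCC once and AGAC once. The window of Id3 held GTCT or AGAC 2 times and GGCTCC, the complement of GGAGCC, once, and no GGCGCC, and the Eng window held GTCT or AGAC 2 times and neither of the others. GTCT on either strand was in 40 of the 47 member windows (85.1%) and in 82.9% of all 32851 windows. GGCGCC was in 12 (25.5%) against 9.59%, and GGAGCC in 22 (46.8%) against 26.0%. The median GC content was 66.8% in member windows and 52.4% in all windows, and its part in these shares was not tested. A match describes letters and not a site of binding.

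Of 8 antagonists and modulators, Bambi, Fstl1 and Fstl3 were above the level under both spreads, and 3 were below with the moderated spread and none with the pooled spread. Chrd, Nog and Grem1, which encode the BMP-binding proteins chordin, noggin and gremlin, were at 6.07 ± 0.00, 6.15 ± 0.04 and 6.47 ± 0.08 log2 and are those 3. Fst, which encodes the activin-binding follistatin, at 6.51 ± 0.09, and Bmper, the BMP-binding endothelial regulator, at 6.12 ± 0.26, were on neither side but under the level in every array, Bmper with 5.87, 6.10 and 6.40. Above under both spreads were 37.5% of this group, near the 32.5% of all named genes. Below with the moderated spread were 37.5%, near the 41.6% of all named genes.

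Among the modulators above the level, Bambi, a receptor-like protein without a kinase that dampens signalling, stood at 8.01 log2 in all 3 arrays (limma adjusted p = 1.87e-05 moderated and 3.64e-06 pooled). Fstl1, a secreted glycoprotein related to follistatin, measured 9.04, 8.82 and 8.35, and Fstl3, which binds activins, measured 7.50, 7.50 and 7.73. Without array 1, and likewise without array 2, Fstl1 and Fstl3 lost the moderated call and only Bambi was above. Every array lay over the level for these 3 genes, and array 3 was lowest for Fstl1 and highest for Fstl3.

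Some latent binding proteins tether TGF-beta to the matrix. Of the 4 genes of this group 1 passed as above under both (25.0%, against 32.5% of all named genes). Ltbp1 measured 8.60, 8.11 and 7.48 log2, a mean of 8.07 ± 0.56 (SD, n = 3, limma adjusted p = 0.0405 moderated and 1.34e-06 pooled), with a range of 1.12 log2. It lost the moderated call when any 1 of the arrays was left out. Ltbp4, at 7.00, 7.00 and 7.06, was above with the moderated spread only (0.243 pooled, limma adjusted p). Ltbp3, at 7.26, 7.26 and 6.69, was over the level in every array and did not pass, and Ltbp2 was on neither side at 6.45 ± 0.25, with array 3 alone over the level.

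Of the remaining 3 genes, Bmp1 encodes a protease that cleaves procollagen and chordin and is no ligand. It measured 7.94, 7.87 and 7.82 log2 and passed under both. Smurf2, a ubiquitin ligase that marks SMADs and receptors for breakdown, had 2 probe sets, at 9.88 ± 0.29 and 9.10 ± 0.52, and both lay over the level in every array. Its partner Smurf1 measured 7.51, 7.29 and 6.90 and missed the threshold with either spread (limma adjusted p = 0.0685 and 0.0545).

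Array 3 differed from the others on either side of the level, in shares near those of all named genes. Among the 32 members with a mean over the level, 18 were lower in array 3 than in both other arrays (56.2%), with a median difference of -0.18 log2 from the mean of arrays 1 and 2. Among all named genes over the level this was so for 50.8%, with a median of -0.08. Of the 20 members under the level none was lowest in array 3 and 11 were highest there (55.0%), against 59.4% of all named genes under the level. The SD over all probe sets was 1.84 log2 in array 3 against 2.08 and 2.06 in arrays 1 and 2, and its part in these differences was not tested. By more than 1 log2 unit, Eng, Smad1 and Acvr2a were lower in array 3, 3 of 32 (9.38%) against 9.00% of all named genes over the level. With quantile normalization only Eng differed by that much. One array against the others has no replicate check and was not tested.

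**Figure D3:**
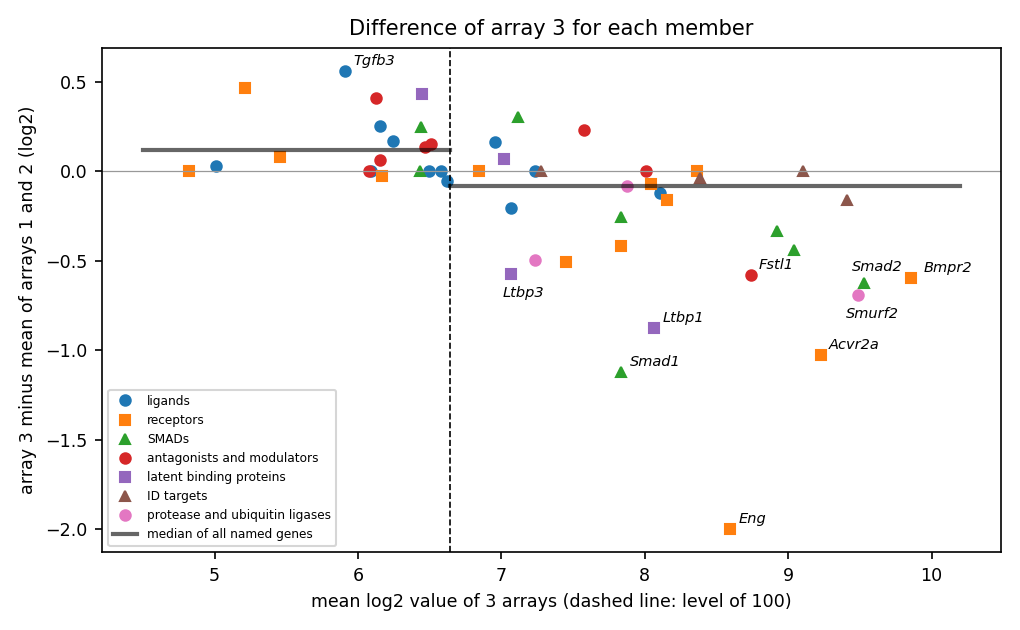
Array 3 minus the mean of arrays 1 and 2 (y axis, log2) against the mean log2 value (x axis) for the 52 members, coloured by role, with black lines for the median of all named genes under and over the level (dashed). Members under the level lie at or above -0.05, and those over it reach down to -2.00 for Eng.

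**Figure D4:**
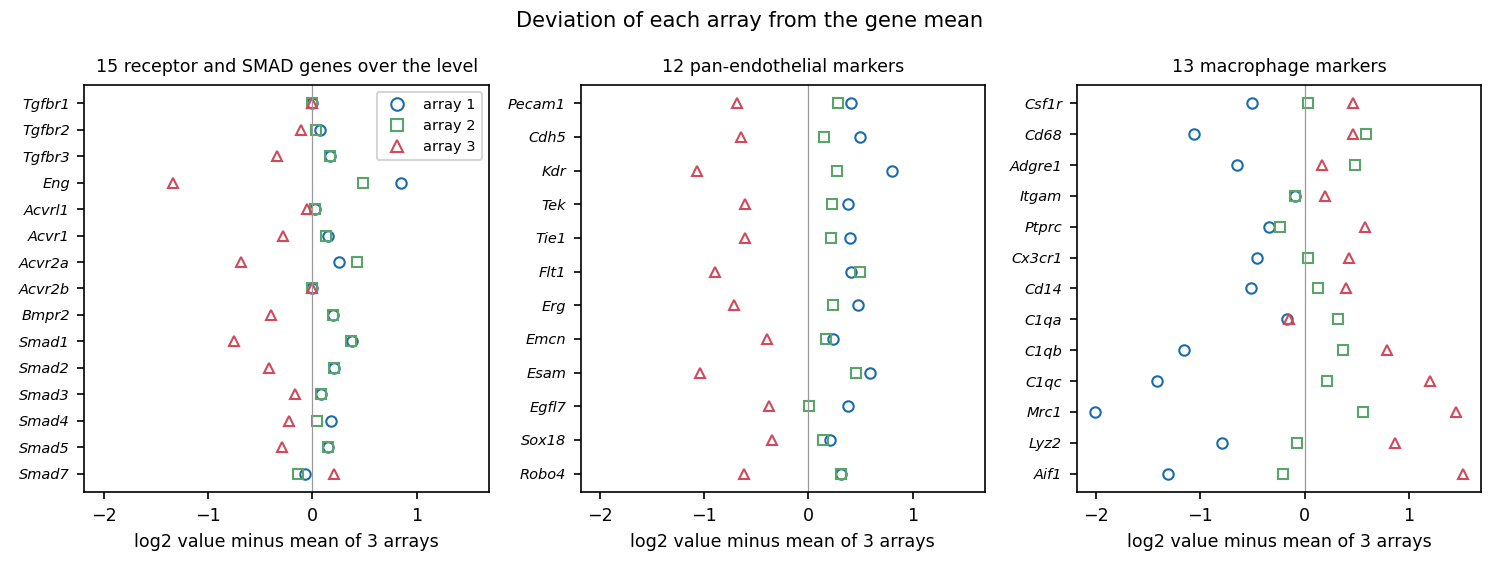
Log2 value minus the gene's mean of 3 arrays (x axis) for 15 receptor and SMAD genes with a mean over the level (left), 12 pan-endothelial markers (middle) and 13 macrophage markers (right), with array 1 as blue circles, array 2 as green squares and array 3 as red triangles. All 12 pan-endothelial markers are lowest in array 3, as are 12 of the 15 receptor and SMAD genes, while array 3 is highest for 10 of the 13 macrophage markers. Of genes with a mean over the level, 56.2% of members and 50.8% of all named genes are lowest in array 3.

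Without array 3, 23 members passed as above under both spreads and 11 as below, where 31.4% and 35.3% of all named genes did. The pooled spread on arrays 1 and 2 alone was added after the values were seen. Without array 3 the ligand genes held 1 above and 5 below under both, the receptors 7 and 4, the SMADs 5 and 0, and the ID genes 4 and 0.

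Of 85 other genes listed for the pathway 80 were measured, of which 16 of 20 intracellular regulators were above the level and 13 of 19 ligand genes below it with the moderated spread. With the moderated spread 36 were above and 30 below, and under both spreads 24 and 22. These are 45.0% and 37.5%, and 30.0% and 27.5%, near the shares of all named genes given above (41.6% and 41.6%, and 32.5% and 30.9%). Without array 1, and likewise without array 2, 22 were above with the moderated spread. Of 19 further ligand genes none was above under both and 10 were below (52.6%), among them Bmp10 at 5.06 ± 0.11 log2 and Bmp15 at 5.93 ± 0.00. Gdf2, which encodes BMP9 and was singled out after its values were seen as the other known ligand of ALK1, was below at 5.02 in each array. These circulating ligands are made mainly in liver and heart.

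Of 20 intracellular regulators 13 were above under both (65.0%, against 32.5% of all named genes) and none below. They included the SMAD corepressors Ski (7.90 ± 0.08 log2), Tgif1 (8.53 ± 0.13) and Tgif2 (8.32 ± 0.01), and the endosomal anchor Zfyve16 (7.70 ± 0.43). Of 12 further receptors, co-receptors and activators of latent TGF-beta, 3 were above and 3 below under both. Each is 25.0%, against 32.5% above and 30.9% below among all named genes. Neo1, a receptor for repulsive guidance molecules that are BMP co-receptors, was at 8.10 ± 0.40, the integrin subunit Itgav at 7.97 ± 0.27 and Nrros, which holds latent TGF-beta on the cell surface, at 8.10 ± 0.27, while the receptor Amhr2 (6.04 ± 0.05) and the nodal co-receptor Tdgf1 (5.67 ± 0.03) were below.

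Of 17 further antagonists and modulators 3 were above and 7 below under both (17.6% and 41.2%, against 32.5% and 30.9% of all named genes). Twsg1, a partner of chordin, was at 7.58 ± 0.15 log2, the BMP-binding transmembrane protein Crim1 at 7.81 ± 0.27 and the chordin-cleaving protease Tll1 at 7.27 ± 0.00, whereas Chrdl2 (5.99 ± 0.18) and Cer1 (5.66 ± 0.03) were below. Of 12 further target genes 5 were above and 2 below under both (41.7% and 16.7%). Ccn2, the connective tissue growth factor, was at 7.37 ± 0.00, the Notch and ALK1 target Hey1 at 8.00 ± 0.33, fibronectin Fn1 at 8.29 ± 0.46 and Snai1 at 7.53 ± 0.06, with Hey2 (5.41 ± 0.27) and the lysyl oxidase gene Lox (5.28 ± 0.00) below.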

How the data were processed

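Affymetrix Mouse Gene ST arrays of 3 pooled samples were used. The deposited table holds log2 values of 35557 probe sets, which the authors' processing notes credit to Affymetrix Expression Console without a version. RMA in GeneSpring is named for the study's own analysis, and the summarization and normalization of this table are not given in the sources used here. Values were used as deposited.

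Probe sets with 1 symbol (21789) were named through the platform annotation and, for 21698, RefSeq gene identifiers of GRCm38.p6. The 1621 with several symbols and 12147 with none were not named. Some listed pathway and marker genes are not reported here. A gene's value is the mean of its probe sets. It was above the level if any probe set was, below only if all were.

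Means were tested against log2(100) with limma 3.58.1 in R 4.3.3 (intercept-only lmFit, eBayes), one-sided, Benjamini-Hochberg adjusted over all probe sets, threshold 0.05. A run on simulated data used normal noise, which lacks values equal in only 2 arrays, so it does not cover such probe sets. The eBayes prior had 0.41 degrees of freedom and an SD of 0.0159 log2. The number of arrays limits the precision. Python 3.11.15 and pandas 2.3.3 were used for the rest.

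Members, lists and tests were chosen with earlier results of these data known. Every member is given, by array where its mean was over the level or its range over 1 log2 unit. Of further genes the first 4 above and first 2 below under both spreads are named per sublist. Alternatives were another spread, level, scaling, gene rule, a filter without a test, and leaving out each array.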

Additional observations from a re-analysis of the deposited data

How the results depend on the processing

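Of the 52 members, 15 kept their call under every alternative run, 12 above (Acvrl1, Bambi, Bmp1, Bmpr2, Id1, Id2, Id3, Smad4, Smad5, Smurf2, Tgfbr1, Tgfbr2) and 3 below (Acvr1c, Bmp5, Bmpr1a). Bambi, Id2, Tgfbr1 and Bmpr1a had the same value in every array, so leaving out an array could change neither their mean nor their spread. Their kept calls in those fits therefore do not test array-to-array spread. For Acvrl1, Bmpr2, Id1, Id3, Smad5, Acvr1c and Bmp5 only 1 array differed, and the fit without it had no spread to test. The precision is limited by 3 arrays and by signals near the background, since olfactory and vomeronasal receptor probe sets, taken as silent, had 95th percentiles of 6.29, 6.40 and 6.67 log2. No paired analysis was possible because there is 1 group.

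With the pooled spread 5 members were below (15 in the reported fit). Ligand genes then numbered 1 above and 2 below, SMADs 0 below, antagonists 0 below and latent binding proteins 1 above. Trend and robust moderation also gave 1 latent binding protein above. With the olfactory percentile as level, 5 members were below, with 4 ligand genes above and 2 below, 0 SMADs below and 0 antagonists below, and the differences from that level turned positive for Bmp6 (0.13 log2), Bmp7 (0.042) and Grem1 (0.012). At or over 100 in all 3 arrays without a test were 4 ligand genes, and under it in all 3 were 2 SMADs and 5 antagonists. At a level of 200, 14 members were above and 28 below, with ligand genes at 1 and 11, 4 receptors above, SMADs at 3 and 3, antagonists at 1 and 5, latent binding proteins at 0 and 3, 1 ID gene below, and further genes at 11 and 56. The difference from that level was negative for Bmp2 (-0.69 log2), Bmp4 (-0.58), Inhbb (-0.41), Tgfbr3 (-0.20), Acvr2b (-0.80), Smad7 (-0.53), Fstl3 (-0.065), Ltbp3 (-0.57), Ltbp4 (-0.63) and Id4 (-0.37). These follow from the level itself.

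Leaving out each array gave 17 to 25 members above and 9 to 18 below with the moderated spread, and 28 and 12 with the pooled spread without array 3, added after the values were seen. The ranges were 1 to 4 and 3 to 7 for ligand genes over these fits, 5 to 8 and 3 to 4 for receptors, 2 to 5 and 0 to 2 for SMADs, 1 to 3 and 2 to 4 for antagonists, 1 to 2 and 0 to 1 for latent binding proteins, and 22 to 39 and 21 to 35 for further genes. Without array 1, 17 members were above, and without array 2 it was 19, with 9 below in either case. Without array 3 the moderated counts were 25 above and 18 below. These fits all had fewer residual degrees of freedom than the fit on 3 arrays, and the same number as each other. Arrays 1 and 2 had a median absolute difference of 0.00 log2 among all named genes on either side of the level. Its part in these counts was not tested. Quantile normalization and median centring kept the count of members within 1.5 times, and the members' median difference of array 3 was 0.02 and -0.04 log2 under them, with 0.00 as deposited.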
